A study of Bos taurus with 6 samples.

Results

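Caspases are the proteases that carry out programmed cell death. This is a description of the arrays' probe sets for a group of 8 genes, CASP6, CASP8, APAF1, CYCS, XIAP, BIRC5, DIABLO and HTRA2. The group is made up of caspases, their inhibitors, and proteins of the mitochondrial route that activate caspases or release them from inhibition. On these arrays a transcript is read by a probe set, several short probes combined into 1 expression value. Every probe set that the platform annotation assigns to a symbol of this group was kept, which gave 8 of the 24036 probe sets and covered 6 of the 8 genes. No probe set carried the symbol of CASP8 or CYCS, so these genes were not analysed here. Bovine embryos produced by in vitro fertilization from abattoir oocytes were compared in 2 groups of 3 pools, with 20 embryos in a pool and 1 Affymetrix Bovine Genome Array per pool. Degenerative embryos had not completed the transition from morula to blastocyst by day 8 of culture. The embryos collected as blastocysts had formed a cavity and a visible inner cell mass by then. Both groups had compacted as morulae before, and each pool mixed embryos of several cows and bulls, so values describe pools and not single embryos.

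Caspases are made as inactive precursors. Initiator caspases such as CASP8 are activated at death receptors of the cell surface, and CASP9 is activated on the apoptosome, which forms when cytochrome c (CYCS) leaves the mitochondria and binds APAF1. Executioner caspases, among them CASP6, then cut structural and nuclear proteins. Inhibitor of apoptosis proteins hold this cascade back, with XIAP as the member that binds caspases most directly, and DIABLO and HTRA2 free caspases from XIAP once they leave the mitochondria. These steps are controlled largely by cleavage, binding and release of proteins, whereas the arrays measured RNA. Dying cells are also a known feature of healthy bovine blastocysts grown in vitro.

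The deposited values are log2 expression values with a floor of 2.12, and all differences are degenerative embryos minus blastocysts. After 20 control probe sets and 5079 that were constant over the 6 arrays had been left out, 18937 remained and were tested with limma, a linear model whose estimate of the spread borrows from all of them. The p-values measure the spread between these pools only. Array medians over these lay between 6.35 and 6.40 in degenerative embryos and between 6.37 and 6.48 in blastocysts. Degenerative pool A stood apart, with a Pearson's r of 0.933 to 0.938 with the other arrays, against 0.949 to 0.994 among the other 5 arrays, and values without it or another pool are given beside several results. Signals of the 3′ and 5′ control probe sets of GAPDH differed by 2.48 to 2.52 in degenerative embryos and by 1.83 to 2.89 in blastocysts, and those of the elongation factor EF1A by 0.52 to 0.83 in degenerative embryos and by -1.65 to 0.87 in blastocysts. Those of actin did not overlap, at 2.29, 4.94 and 3.08 in degenerative pools A, B and C and 5.37, 6.65 and 5.92 in blastocyst pools A, B and C, with the 3′ signal at 4.48 to 7.14 in degenerative embryos and 7.56 to 8.84 in blastocysts. The 5′ signal of actin was 2.20 on all 6 arrays, near the floor. The actin values thus follow the 3′ signal alone and do not measure a ratio of 3′ to 5′ signal. Embryo markers lay on both sides. The pluripotency factor POU5F1 was at 12.99 ± 0.34 in degenerative embryos and 12.51 ± 0.15 in blastocysts, without overlap, and SOX2 at 8.77 ± 0.72 in degenerative embryos and 7.74 ± 0.34 in blastocysts (SD, n = 3 pools each). Of the trophectoderm markers, the keratin KRT18 was at 15.36 ± 0.18 in degenerative embryos and 15.42 ± 0.21 in blastocysts, PTGS2 at 12.78 ± 0.19 in degenerative embryos and 13.78 ± 0.40 in blastocysts, without overlap. Further probe sets of PTGS2 had log2 differences of -3.61 without overlap (mean 9.78) and 0.88 with overlap (mean 2.86). The interferon IFNT2 was at 12.27 ± 1.58 in degenerative embryos and 13.27 ± 0.30 in blastocysts. TEAD4 averaged 8.67 in degenerative embryos and 8.64 in blastocysts, and KRT8 7.65 and 7.69. SLC2A3 and the hypoblast marker HNF4A had means under 5 in both groups. Other hypoblast markers were brighter. In degenerative embryos and blastocysts, GATA6 averaged 13.70 and 13.75, APOA1 13.38 and 13.25, and GATA4 6.63 and 5.46. Of 11 markers of cumulus and granulosa cells, 8 could be tested and their mean per pool was 3.61 to 5.02 in degenerative embryos and 3.43 to 4.93 in blastocysts, with LHCGR and INHA at the floor. Of these 8, 4 were higher and 4 lower in degenerative embryos. INHBA was at 8.70, 9.03 and 7.84 in degenerative pools A, B and C, against 3.71, 6.64 and 7.68 in blastocyst pools A, B and C, without overlap. PTX3 was highest in degenerative pool B, at 8.36, but at 2.12 in degenerative pool A. STAR averaged 8.25 in degenerative embryos and 7.93 in blastocysts. CYP19A1 was lower in its brightest probe set, at 2.64 ± 0.10 in degenerative embryos and 4.72 ± 2.05 in blastocysts. TNFAIP6 and FSHR were also lower, with log2 differences of -0.82 and -0.52. Of 8 sperm markers, 4 could be tested, with means per pool of 5.12 to 5.60 in degenerative embryos and 5.22 to 5.96 in blastocysts. These means were raised by ODF2, at 10.44 ± 0.25 in degenerative embryos and 10.88 ± 0.07 in blastocysts, without overlap. In degenerative embryos and blastocysts, TNP1 averaged 5.23 and 6.01, PRM1 3.65 and 3.45, and AKAP4 2.26 and 2.13. The part of RNA quality and of these other cells in the results was not tested. In pooled embryos, fewer cells of a type and less RNA per cell cannot be told apart.

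The 8 probe sets fell into 2 kinds by their level. CASP6, BIRC5, DIABLO and 1 of the 2 probe sets of HTRA2 had signals of about 10 and above in all pools, while APAF1, both probe sets of XIAP and the other of HTRA2 lay within 0.1 of the floor on every array. None of the 6 that could be tested passed limma at an adjusted p of at most 0.15, against 0.0211% of all those tested, and none passed at 0.25, against 0.158%. The groups were apart for 1 of the 6, HTRA2, where degenerative embryos were lower. Groups apart made up 15.4% of all probe sets tested, and 8.93% were apart and lower. HTRA2 was also the only one with an unadjusted limma p under 0.05, against 8.61% of all probe sets, 5.27% in that direction. With 6 probe sets, 1 of either kind is near the background share.

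**Figure D1:**
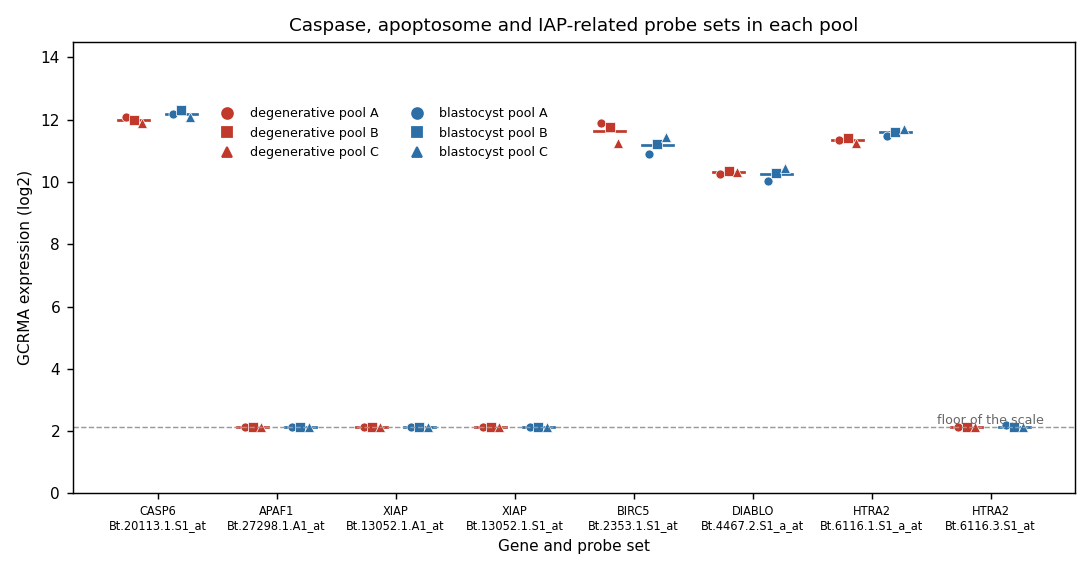
Log2 expression values (vertical axis) for each of the 8 probe sets (horizontal axis), by gene. Each point is a pool of embryos, red for degenerative embryos and blue for blastocysts, with a marker shape for each pool letter, short lines are group means, and the dashed line is the floor of the scale at 2.12. Of the probe sets, 4 lie at high levels in every pool and 4 lie on the floor.

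CASP6, an executioner caspase known in other mammals for cutting nuclear lamins, was the only caspase of the group with a probe set (Bt.20113.1.S1_at). It was at 12.09, 11.98 and 11.89 in degenerative pools A, B and C, against 12.16, 12.32 and 12.07 in blastocyst pools A, B and C. The groups overlapped by 0.02, since degenerative pool A lay just above blastocyst pool C. The log2 difference was -0.20 (standard error 0.09, unadjusted p = 0.0884, adjusted p = 0.626 from limma), with a 95% interval of -0.44 to 0.04, or 0.738-fold to 1.03-fold. The difference was -0.13 without blastocyst pool B. A 2-fold difference in either direction thus lay outside the interval.

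The apoptosome was represented by APAF1 alone, the scaffold on which CASP9 is activated. Its single probe set (Bt.27298.1.A1_at) had the same value, 2.12, on all 6 arrays and could not be tested. A value at the floor gives no measure of the transcript, and no fold is given. The probe set cannot show whether APAF1 RNA was absent or only below what these probes detect.

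XIAP, the inhibitor that binds caspases directly, was in the same position. One of its probe sets (Bt.13052.1.A1_at) was at 2.12 on all 6 arrays, and the other (Bt.13052.1.S1_at) was at 2.12 on all 6 with a departure of 0.00175 in blastocyst pool A. That departure alone brought it among the probe sets tested (log2 difference -0.00, adjusted p = 1 from limma). Both probe sets give only an upper bound on the signal, so neither group can be placed above the other.

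BIRC5, or survivin, belongs to the same protein family but is known mainly for its work in cell division, where it is a subunit of the chromosomal passenger complex. Its probe set (Bt.2353.1.S1_at) was at 11.90, 11.75 and 11.23 in degenerative pools A, B and C, against 10.90, 11.22 and 11.43 in blastocyst pools A, B and C. Degenerative pools A and B lay above all blastocyst pools, and degenerative pool C lay below blastocyst pool C. The log2 difference, 0.45 (standard error 0.24, unadjusted p = 0.123, adjusted p = 0.651 from limma), was the largest of the group, with a 95% interval of -0.18 to 1.07, or 0.885-fold to 2.10-fold. Between pools of the same letter it was 1.002 for A, 0.54 for B and -0.20 for C. It was 0.17 without both A pools and 0.64 without degenerative pool C, where the unadjusted p was 0.0329 and the adjusted p 0.392.

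DIABLO, also called SMAC, is released from mitochondria and binds inhibitors of apoptosis proteins. The degenerative pools A, B and C were at 10.25, 10.36 and 10.33 in its probe set (Bt.4467.2.S1_a_at), and the blastocyst pools at 10.02, 10.29 and 10.43. The degenerative pools lay within the range of the blastocyst pools, whose spread was wider (SD 0.06 in degenerative embryos and 0.21 in blastocysts, n = 3 each). By limma this came to 0.07 on the log2 scale, with a standard error of 0.12 (adjusted p = 0.859) and a 95% interval of -0.25 to 0.39, or 0.840-fold to 1.31-fold. Its direction rested on blastocyst pool A, without which it was -0.05.

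HTRA2, or OMI, is a serine protease of the mitochondrial intermembrane space that removes damaged proteins in healthy mitochondria and inactivates inhibitors of apoptosis proteins after its release. Its bright probe set (Bt.6116.1.S1_a_at) was at 11.35, 11.40 and 11.24 in degenerative pools A, B and C, against 11.46, 11.61 and 11.70 in blastocyst pools A, B and C. Each degenerative pool was below each blastocyst pool, with a gap of 0.06 between the groups. The log2 difference was -0.26 (standard error 0.09, unadjusted p = 0.0312, adjusted p = 0.547 from limma), with a 95% interval of -0.48 to -0.04, or 0.716-fold to 0.976-fold. SAM, the test of the study's methods as rewritten here, did not call it at a false discovery rate of 15%. At 25% SAM called it as lower, as it did 4.53% of all probe sets tested, with 4.95% called in either direction. The unadjusted p was under 0.05 in 4 of 12 alternatives and 0.0137 to 0.271 over all 12. The second HTRA2 probe set (Bt.6116.3.S1_at) lay between 2.12 and 2.13 in degenerative embryos and between 2.12 and 2.18 in blastocysts, at the floor, so it neither repeats nor opposes that difference.

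**Figure D2:**
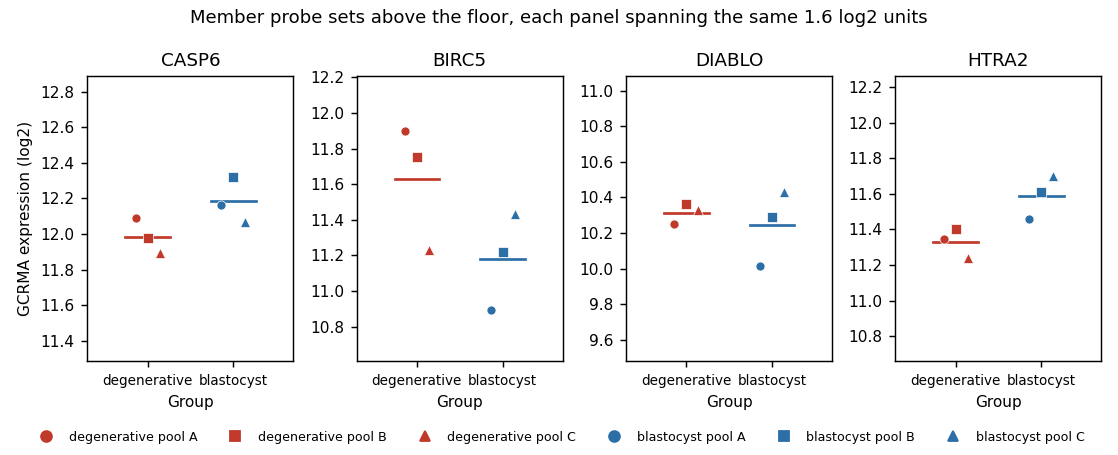
Log2 expression values (vertical axes, each spanning the same range around its own mean) of the 4 probe sets above the floor, with degenerative pools in red left of blastocyst pools in blue, a marker shape for each pool letter and lines at group means. The groups are apart only for HTRA2, with a gap of 0.06, and BIRC5 has the widest spread between pools.

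The values of the 4 bright probe sets were close between the groups and also between pools. Their pooled SD within groups was 0.104 (HTRA2) to 0.312 (BIRC5), where 11316 probe sets averaging 5 or more had a median of 0.444. That larger set was not matched to the 4 probe sets by level. The log2 difference was under 0.5 in either direction in all 4, as in 61.9% of those 11316 probe sets. Intervals of 3 of the 4 stayed within 2-fold in both directions, BIRC5 being the exception. A difference of 2-fold or more was thus outside the 95% interval for CASP6, DIABLO and HTRA2, whereas smaller differences could not be told from the spread between pools, apart from the unadjusted result for HTRA2. With the largest intervals that any of the 12 alternatives gave, the bounds were -0.72 to 0.32 for CASP6, -0.48 to 0.61 for DIABLO, -0.77 to 0.26 for HTRA2 and -0.70 to 1.46 for BIRC5.

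**Figure D3:**
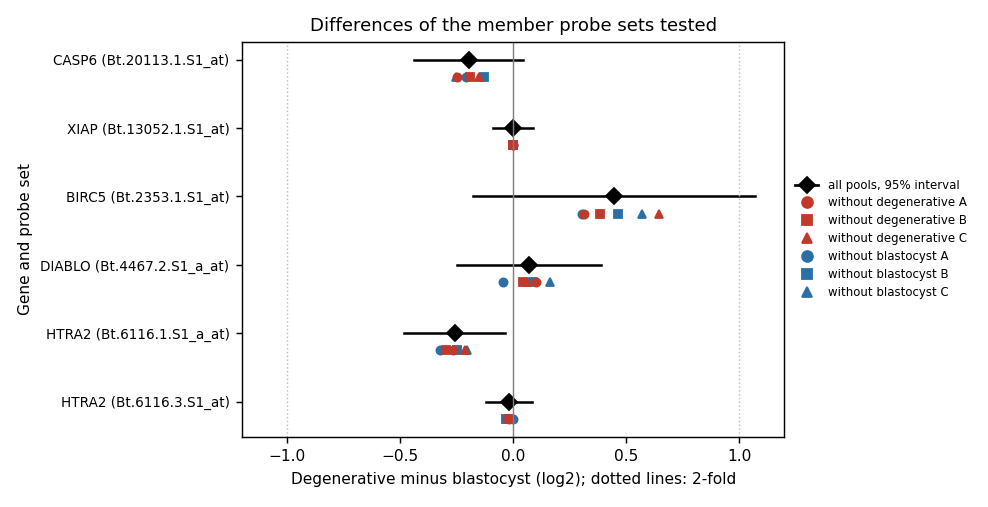
Difference between group means on the log2 scale (horizontal axis, degenerative minus blastocyst) for the 6 probe sets tested (vertical axis). Black diamonds and bars are the difference and 95% interval from limma, smaller points below are the difference without a single pool (red for a degenerative and blue for a blastocyst pool left out), and dotted lines mark 2-fold. Only the interval of HTRA2 (Bt.6116.1.S1_a_at) leaves out 0, and only that of BIRC5 reaches beyond 2-fold, up to 1.07.

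The rest of the pathway was read from 7 lists of genes around the group, with the probe set of the highest mean over the arrays for each gene. Over all 8189 named genes, 4465 were higher and 3724 lower in degenerative embryos. Of 124 listed genes, 77 could be tested, with 44 higher and 33 lower. None passed limma at an adjusted p of at most 0.15, where 0.0366% of the 8189 named genes did. An unadjusted p under 0.05 was found for 5 of the 77, 4 of them higher and 1 lower in degenerative embryos, or 6.49%, against 10.3% of all named genes (4.68% higher and 5.65% lower). The groups did not overlap for 15 of the 77, 11 higher and 4 lower, or 19.5%, against 18.1% of all named genes (8.99% higher and 9.16% lower). Both totals lay near or below the shares of all genes.

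Of 12 other caspases, 3 could be tested and none passed limma. CASP1, which matures inflammatory cytokines, was at 2.20 to 2.39 in degenerative pools and 2.41 to 3.57 in blastocyst pools, close to the floor (log2 difference -0.52, adjusted p = 0.722 from limma, and -0.15 without blastocyst pool C). CASP9, the initiator that APAF1 activates, was at 5.02 in degenerative pool A and between 2.44 and 2.65 in the other 5 pools, so its log2 difference of 0.81 was -0.04 without that pool. CASP4, an inflammatory caspase, had a log2 difference of 0.18 in its brighter probe set, with overlapping groups. It was -0.10 without degenerative pool B and 0.68 without degenerative pool A. The other CASP4 probe set lay at the floor.

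Of 12 other inhibitors of apoptosis proteins and their regulators, 8 could be tested, with 2 higher and 6 lower and a median log2 difference of -0.33, against 0.02 over all named genes. None passed limma (smallest adjusted p = 0.685). HAX1, a mitochondrial partner of HTRA2, had a log2 difference of -0.36, which was -0.20 without blastocyst pool C. BIRC6, a giant inhibitor of apoptosis protein that also conjugates ubiquitin, was at -0.36, and at -0.19 without blastocyst pool B. BIRC3, a ubiquitin ligase of the same family, was at -0.59 in its brighter probe set and -1.23 in the other, and the groups overlapped in both. The brighter one was at -0.35 without blastocyst pool A, -0.21 without both A pools and -0.90 without degenerative pool C.

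Death receptor signalling, the route to the unmeasured CASP8, had 12 tested genes of 23, with 8 higher and 4 lower and a median log2 difference of 0.28. None passed limma (smallest adjusted p = 0.605). The receptor TNFRSF21 was at 5.90, 7.91 and 7.69 in degenerative pools A, B and C, against 9.00, 8.45 and 8.42 in blastocyst pools A, B and C. Degenerative pool A was far below the rest, and the groups did not overlap. By limma the log2 difference was -1.46 with a standard error of 0.62 (adjusted p = 0.605), and it was -0.82 without degenerative pool A. CFLAR, the decoy that competes with CASP8 at these receptors, had a log2 difference of -0.62, and -0.36 without blastocyst pool A. TRADD, an adaptor with low signals, was at 0.70 with overlapping groups, at 0.47 without degenerative pool B and at 1.06 without blastocyst pool C. The 3 genes with the smallest p thus lay on both sides. FADD, the adaptor that recruits CASP8, and the receptor FAS, added after their values were seen, had log2 differences of 0.54 and 0.17 with overlapping groups.

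Regulators of mitochondrial release and of the apoptosome had 16 tested genes of 19, with 5 higher and 11 lower and a median log2 difference of -0.25. None passed at an adjusted p of at most 0.15, but MFF, the receptor that brings the fission protein DRP1 to mitochondria, came nearest. It was at 9.27, 9.44 and 9.30 in degenerative pools A, B and C, against 9.94, 9.94 and 9.92 in blastocyst pools A, B and C. The groups did not overlap, and blastocyst pools lay close together (SD 0.09 in degenerative embryos and 0.01 in blastocysts, n = 3 each). By limma they differed by -0.60 with a standard error of 0.06 (adjusted p = 0.227, and between 0.183 and 0.763 over 9 alternatives). MFF was thus within an adjusted p of 0.25, as were 0.171% of named genes. SAM called it as lower at a false discovery rate of 15%, as it called 0.452% of named genes and 0.396% of all probe sets in either direction. Its second probe set, dim at a mean of 4.05, had a log2 difference of -0.61 with overlapping groups. VDAC1 and MTCH2 of this list, added after their values were seen, had overlapping groups in the probe sets used. Their second probe sets were lower without overlap, with log2 differences of -1.19 (VDAC1, mean 8.52) and -0.73 (MTCH2, mean 10.98). The list's count of groups without overlap thus depends on the probe set chosen.

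The gene for the enzyme that attaches heme to cytochrome c, HCCS, went the other way. It was at 11.63, 11.60 and 11.63 in degenerative pools A, B and C, against 9.90, 10.79 and 11.41 in blastocyst pools A, B and C. The groups did not overlap, but the log2 difference of 0.92 by limma, with a standard error of 0.40 (adjusted p = 0.616), was 0.52 without blastocyst pool A. VDAC2, a channel of the outer mitochondrial membrane, was lower in each degenerative pool than in each blastocyst pool, with a log2 difference of -0.32 (adjusted p = 0.615 from limma, and -0.21 without degenerative pool C). The groups almost touched, with degenerative pool A at 14.571 and blastocyst pool C at 14.580.

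Substrates of executioner caspases and nucleases had 21 tested genes of 26, with 16 higher and 5 lower and a median log2 difference of 0.32. None passed limma (smallest adjusted p = 0.451). The mean over the 21 genes was 9.51, 9.12 and 9.00 in degenerative pools A, B and C. In blastocyst pools A, B and C it was 8.52, 8.82 and 8.96. Between pools of the same letter, the means were furthest apart for A and close for C. STK4, a kinase that caspases cut into an active fragment, was at 9.30, 8.89 and 9.01 in degenerative pools A, B and C, against 8.34, 7.64 and 7.96 in blastocyst pools A, B and C. The groups did not overlap, with a log2 difference of 1.08 (standard error 0.22, unadjusted p = 0.0052, adjusted p = 0.451 from limma), and SAM called it as higher at 25%, as it called 5.56% of named genes in either direction, but not at 15%. BCAP31, a membrane protein of the endoplasmic reticulum that CASP8 cuts, was at 13.01 ± 0.26 in degenerative embryos and 12.34 ± 0.30 in blastocysts (SD, n = 3 pools each), also without overlap, and its log2 difference of 0.67 was 0.42 without both A pools. NUMA1, a spindle protein, had a log2 difference of 0.68, which was 0.39 without blastocyst pool A and 0.28 without both A pools. The nuclease DFFB cuts DNA in dying cells once its inhibitor DFFA is cleaved. DFFB and DFFA had log2 differences of 0.18 and -0.03, and were added to those named after their values were seen.

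**Figure D4:**
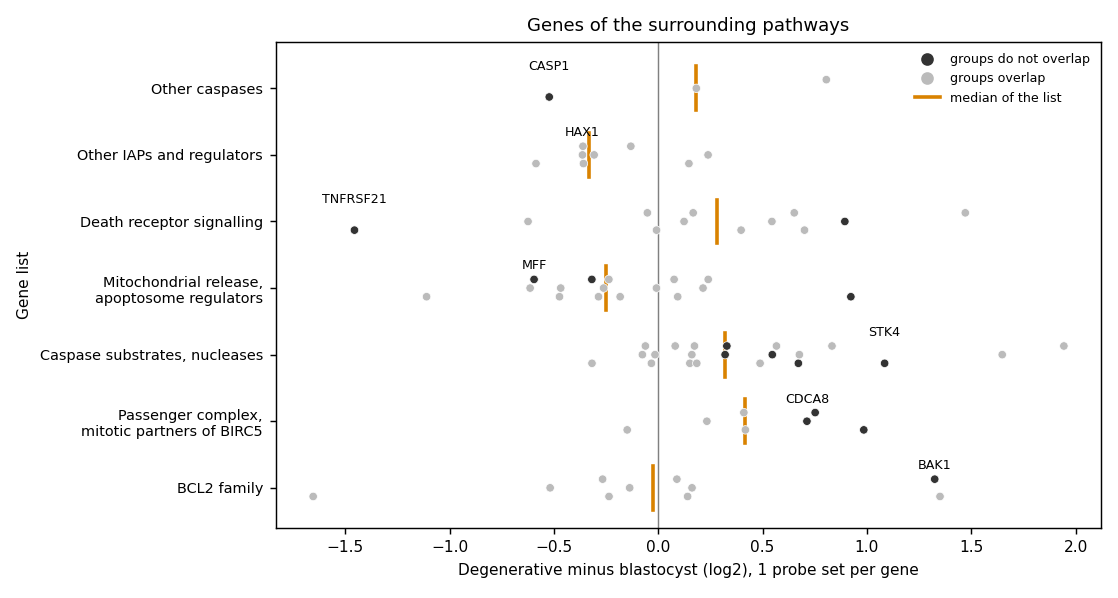
Difference between group means on the log2 scale (horizontal axis, degenerative minus blastocyst) of the genes of 7 lists around the caspases (vertical axis), 1 probe set per gene. Dark points are genes whose groups do not overlap, grey points are genes whose groups do, orange lines are list medians, and the gene with the smallest p of each list is named. Medians run from -0.33 for the other inhibitors of apoptosis proteins and their regulators to 0.42 for the mitotic partners of BIRC5.

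Since BIRC5 works in mitosis, its partners there were also read. Of 12 genes of the chromosomal passenger complex and its mitotic partners, 7 could be tested, with 6 higher and 1 lower and a median log2 difference of 0.42. None passed limma (smallest adjusted p = 0.537), and the groups did not overlap for 3 of the 7, all higher, against 18.1% of all named genes, 8.99% in that direction. CDCA8, or borealin, a subunit of the complex beside BIRC5, was at 11.70, 11.68 and 11.43 in degenerative pools A, B and C, against 10.49, 11.26 and 10.91 in blastocyst pools A, B and C. Its log2 difference was 0.71 (standard error 0.22, unadjusted p = 0.0258, adjusted p = 0.537 from limma), and 0.47 without both A pools. The mitotic kinase PLK1 had a log2 difference of 0.98, and 0.50 without degenerative pool A, and the mitotic kinesin KIF20A one of 0.75, and 0.23 without that pool.

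Much of this list's difference lay in a single pool. The mean over the 7 genes was 11.79 in degenerative pool A, against 10.80 and 10.65 in degenerative pools B and C and 10.58, 10.70 and 10.52 in blastocyst pools A, B and C. All 7 genes had their highest value in degenerative pool A, which is also the array that stood apart. BIRC5 itself was highest in that pool, but its value in degenerative pool B was nearly as high, at 11.75.

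**Figure D5:**
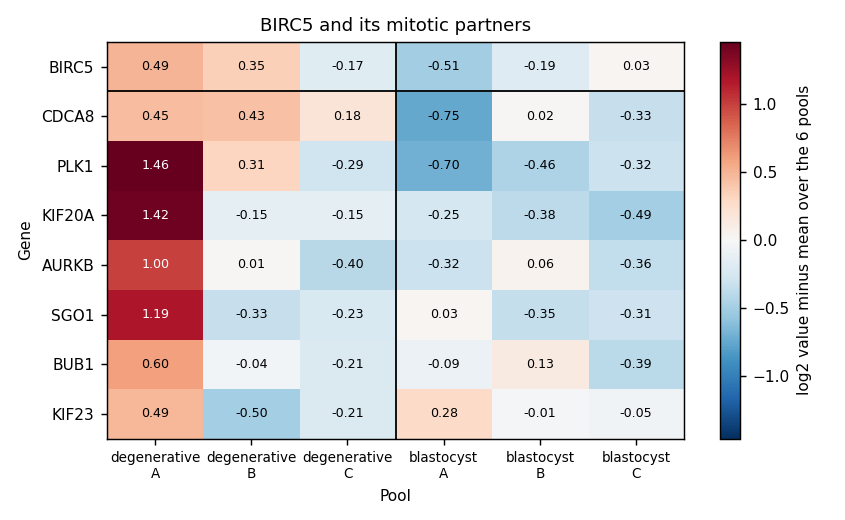
Log2 values of BIRC5 and of 7 mitotic partners (rows) in each pool (columns, degenerative pools left of blastocyst pools), each centred on its mean over the 6 pools, with red for higher and blue for lower values. Each row is highest in degenerative pool A, and the rows differ in degenerative pools B and C.

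The BCL2 family, which decides whether mitochondria release cytochrome c, DIABLO and HTRA2, had 10 tested genes of 20, with 5 higher and 5 lower and none past limma's threshold. Of the pore-forming members, BAK1 had a log2 difference of 1.32, without overlap between the groups (adjusted p = 0.544 from limma). BAX had one of -1.65 (adjusted p = 0.737 from limma), which was -0.42 once degenerative pool A was left out and -2.83 when pool C of that group was. BAD, which counters the protective members, was at 1.35 (adjusted p = 0.672 from limma), and at 0.64 without blastocyst pool A.

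BIRC5 was the only member whose values spanned at least 1 log2 unit over the 6 pools. Among 4795 probe sets with 1 gene symbol, a mean of at least 5 and such a span, the nearest by root mean square difference of centred values was that of S100B, a calcium-binding protein, at 0.0603. It was at 8.37, 8.18 and 7.56 in degenerative pools A, B and C, against 7.29, 7.53 and 7.75 in blastocyst pools A, B and C. The next was RNASET2, a ribonuclease of lysosomes, at 0.0647, with 11.39, 11.08 and 10.76 in degenerative pools and 10.34, 10.69 and 10.84 in blastocyst pools. Neither passed limma (adjusted p = 0.635 for S100B and 0.628 for RNASET2). This likeness is a description over 6 arrays of the nearest among many candidates.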

How the data were processed

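RNA of pooled embryos was linearly amplified from poly-dT primers, labeled and hybridized. The authors deposited log2 values, 1 per probe set and array. They come from GCRMA (2.14.1 by the submitters' processing notes), which corrects the background from probe sequence, normalizes by quantiles and compresses dim values at a floor. The number of arrays limits the precision.

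Differences were tested with limma (3.58.1, under R 4.3.3; lmFit, eBayes, Benjamini-Hochberg over all probe sets tested). For single values, 3 pools against 3 cannot go below p = 0.1 in a 2-sided exact permutation test. SAM was rewritten over all 20 relabelings, taking the largest set of calls within the false discovery rate. At 15% it called 75 probe sets, and its calls need not equal those of the study. The constant that SAM adds to the spread was 1.03e-08, too small to hold back probe sets of low spread. The code for limma and SAM was also run on simulated arrays. Their noise was independent between arrays and probe sets, unlike these pools, whose deviations correlate, and no result here rests on that run. Platform symbols were updated by gene ID. Alternatives covered the test, spread, normalization, filters, pools left out and the letter as a block.

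The genes and lists were chosen with earlier results of these data known. Named were every probe set of the group, the 3 genes of each list with the smallest limma p, and the 2 nearest profiles of members spanning at least 1 log2 unit. The labels do not say that a letter marks a shared batch. Deviations from group means of same-lettered pools correlated across probe sets at 0.373 (A), 0.180 (B) and 0.275 (C), so they were treated as paired in an alternative, although degenerative B also correlated with blastocyst C (0.374).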

Additional observations from a re-analysis of the deposited data

How the results depend on the processing

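No probe set of the group passed in any limma alternative (trend and robust estimation, centring of arrays, no dim probe sets, constant probe sets kept, 25% threshold, each pool or both A pools left out), and with the replicate block the count was also 0, as for SAM at 15%. With SAM at 25%, chosen after seeing the data, it was 1 (HTRA2). The count of those whose groups did not overlap was 1 to 3 without single pools (3 without blastocyst C, 2 without degenerative A or degenerative C), with fewer pools to overlap, and 20.8% to 30.0% of all probe sets were apart under these omissions. It was 2 without both A pools, where 38.9% were apart. Among the pathway genes, 1 was called by SAM at 15%, 1 by limma at 25% (MFF in both), 2 by SAM at 25% and 0 in the other alternatives. The log2 difference of DIABLO changed sign without both A pools (-0.015) and lay between -0.047 and 0.16 without single pools. After centring on array medians, the differences of XIAP (0.029) and of the dim HTRA2 probe set (0.011) changed sign, and that of the dim HTRA2 probe set was -0.030 to 0.00083 without single pools. CASP4 lay between -0.10 and 0.68 and CASP9 between -0.037 and 1.24 without single pools, and CASP9 was at -0.055 without both A pools. The causes were not tested. Alternatives for named pathway genes, and constant probe sets kept in their count, were added after seeing the data. Differences of dim probe sets are limited by the floor.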
